A study of Mus musculus with 24 samples.

Results

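Subcerebral projection neurons and corticothalamic projection neurons of the developing mouse cortex were compared at embryonic day 16 (E16) across every gene that reached 1 FPKM in either neuron type. FPKM is a level corrected for transcript length and for the number of mapped fragments. This rule kept 13052 of the 32310 entries of the deposited table. Each neuron type has 1 value per gene at E16, the authors' pooled value of 2 libraries, so the E16 values have no SD and no test between libraries, and the depth behind them is unknown.

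The E16 subcerebral group holds projection neurons sorted by FACS from cortices of outbred CD1 mice and labelled subcerebral. The E16 corticothalamic group holds projection neurons sorted from the cortex of the same strain and labelled corticothalamic. No genotype or treatment is given for either. The study also sorted both types at E15, E18 and postnatal day 1 (P1), and callosal neurons at all 4 stages, with 2 libraries in each of the 12 groups. The markers used for sorting, and whether animals or litters were pooled, are not stated in the labels used here.

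Both neuron types lie in the deep layers of the cortex and send axons out of it. Subcerebral neurons of layer V reach the brainstem and the spinal cord, whereas those of layer VI called corticothalamic reach the thalamus. In the developing mouse cortex the transcription factors Fezf2 and Bcl11b (CTIP2) promote the subcerebral fate, while Tbr1 and Sox5 support the corticothalamic fate and hold back subcerebral genes in layer VI.

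The 4 marker genes separated the columns unequally. Tcerg1l, which encodes a relative of a transcription elongation regulator and marks layer V neurons, was at 81.3 FPKM in subcerebral neurons, against 1.28 FPKM in corticothalamic neurons. Ngfr, which encodes the p75 neurotrophin receptor, was at 0.825 FPKM in subcerebral neurons, against 43.7 FPKM in corticothalamic neurons. Tle4, a Groucho-type corepressor gene of layer VI neurons, was at 23 FPKM in subcerebral neurons, against 194 FPKM in corticothalamic neurons. Bcl11b was at 124 FPKM in subcerebral neurons, against 68 FPKM in corticothalamic neurons, a log2 difference of 0.86 that did not reach 2-fold, while callosal neurons had 1.02 FPKM. Differences are given throughout as subcerebral minus corticothalamic on the log2(FPKM + 1) scale, which understates the change of low genes. In sorted bulk RNA, fewer cells of a type and less RNA per cell cannot be told apart. If the sort used the product of a marker gene, that gene's difference follows from the sort.

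Of the 13052 genes, 314 were at least 2-fold higher in subcerebral neurons (2.41%) and 384 were at least 2-fold lower (2.94%), so that 5.35% were past 2-fold. This is a rule of size and not a test. At 4-fold there were 57 higher and 84 lower genes, and at 8-fold 21 and 20. The median difference was 0.01, and 82.2% of the genes lay within 0.5 of 0. Of the 698 genes past 2-fold, 195 stayed under 5 FPKM in both columns, a share close to that over all genes (3480 of 13052). The filter at 1 FPKM fell between St18, kept at 1.0002 FPKM, and Wnt3, left out at 0.999 FPKM. The higher of the E16 values lay between 1 and 1.1 FPKM in 220 genes that were kept and between 0.9 and 1 FPKM in 199 that were left out.

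**Figure D1:**
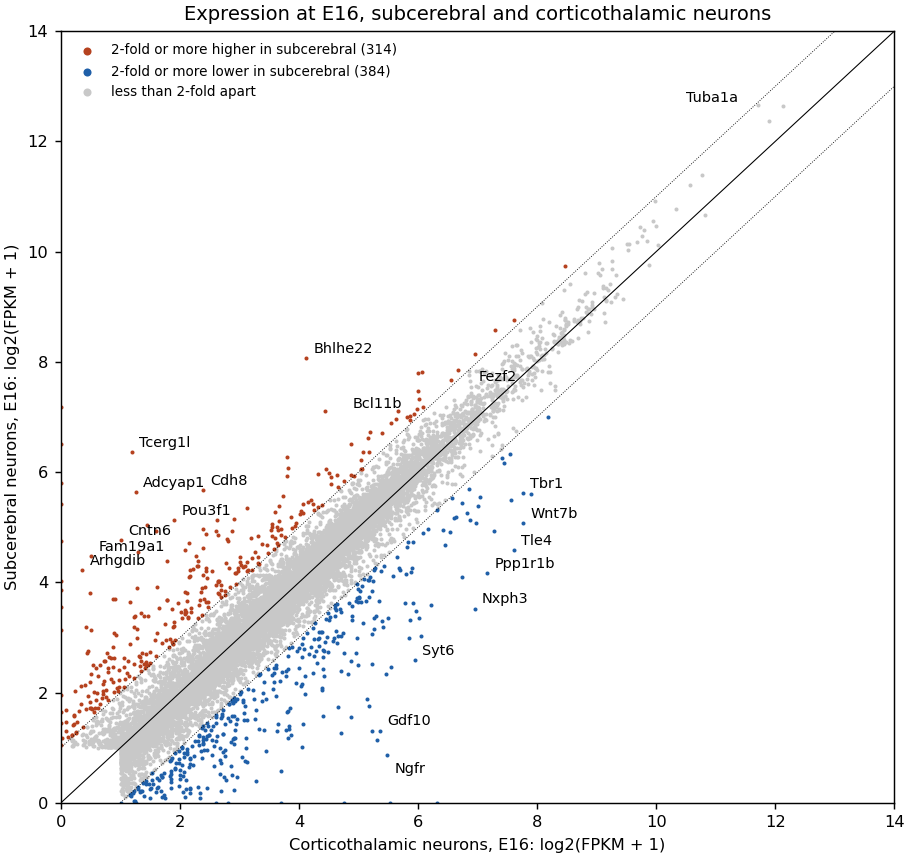
Each point is 1 of the 13052 genes at E16, with log2(FPKM + 1) in subcerebral neurons on the vertical axis and in corticothalamic neurons on the horizontal axis. The solid line marks equal values and the dotted lines mark 2-fold, and the labelled genes, such as Tcerg1l and Bhlhe22 above the lines and Ngfr and Tle4 below them, are described in the text.

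Among genes listed above 0 in both columns, Tcerg1l had the largest difference toward subcerebral neurons, 5.18. Adcyap1, which encodes the neuropeptide PACAP, was at 48.7 FPKM in subcerebral neurons, against 1.39 FPKM in corticothalamic neurons. Fam19a1, which encodes a secreted chemokine-like protein, was at 21.2 FPKM in subcerebral neurons, against 0.42 FPKM in corticothalamic neurons. In callosal neurons all 3 genes were low, at 0.478 FPKM for Tcerg1l, 1.42 FPKM for Adcyap1 and 0.195 FPKM for Fam19a1. Bhlhe22 (also known as Bhlhb5), which encodes a helix-loop-helix repressor needed for the correct axon targeting of corticospinal neurons, was at 267 FPKM in subcerebral neurons, against 16.4 FPKM in corticothalamic neurons. Callosal neurons held 104 FPKM of Bhlhe22, between the other types. Arhgdib, which encodes an inhibitor of small GTPase cycling, was at 17.7 FPKM in subcerebral neurons, against 0.283 FPKM in corticothalamic neurons. The contactin gene Cntn6 was at 26.1 FPKM in subcerebral neurons, against 1.02 FPKM in corticothalamic neurons. Siah3, of the family of Siah ubiquitin ligases, was at 29.4 FPKM in subcerebral and 2.04 FPKM in corticothalamic neurons. The cell adhesion gene Cdh8, a classical cadherin, was at 50.0 FPKM in subcerebral against 4.23 FPKM in corticothalamic neurons. Pou3f1, which encodes a POU-domain transcription factor, was at 33.9 FPKM in subcerebral neurons, against 2.73 FPKM in corticothalamic neurons, and it was higher still in callosal neurons at 52.3 FPKM. The other members of the 12 largest were 6430573F11Rik, XLOC_001645 and XLOC_003544, with differences of 3.31, 3.59 and 3.24. The names that start with XLOC_ are loci known by an assembly identifier alone.

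Toward corticothalamic neurons, Ngfr had the largest difference among genes listed above 0 in both columns, -4.61. Tmem132b, a transmembrane protein gene, was at 1.21 FPKM in subcerebral and 38.6 FPKM in corticothalamic neurons. Gdf10, a growth factor gene of the TGF-beta superfamily, was at 1.48 FPKM in subcerebral against 39.9 FPKM in corticothalamic neurons. Wscd1 was at 1.46 FPKM in subcerebral neurons, against 36.3 FPKM in corticothalamic neurons. Nxph3 and Nxph4, neurexophilin genes whose products are secreted ligands of alpha-neurexins, were both among the 12. Nxph3 was at 10.5 FPKM in subcerebral and 123 FPKM in corticothalamic neurons, and Nxph4 was at 2.36 FPKM in subcerebral against 35 FPKM in corticothalamic neurons. Syt6, a synaptotagmin gene, was at 5.02 FPKM in subcerebral neurons, against 60.5 FPKM in corticothalamic neurons. Whrn, which encodes the scaffold protein whirlin, was at 2.67 FPKM in subcerebral and 34.2 FPKM in corticothalamic neurons. Timp3, a metalloproteinase inhibitor gene, was at 0.483 FPKM in subcerebral against 12 FPKM in corticothalamic neurons, and the G-protein regulator gene Rgs16 was at 4.02 FPKM in subcerebral neurons, against 43.2 FPKM in corticothalamic neurons. Ptpru and Vstm2b completed the 12, with differences of -3.45 and -3.30. In callosal neurons Wscd1, at 7.9 FPKM, was the only one of these 12 genes above 4 FPKM.

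Of the 698 genes past 2-fold, 15 were listed at exactly 0 in one of the columns, 6 in subcerebral and 9 in corticothalamic neurons. Some of them outrank the genes above, with differences of up to 7.18 for Snora31 and down to -6.31 for Mir199b. These were 7 snoRNA genes, 4 microRNA genes and 4 unnamed transcripts with AK identifiers, which are not read further since a listed 0 can be a failed estimate and such short transcripts are poorly measured after poly(A) selection. Loci with XLOC_ identifiers supplied 23 of the higher and 20 of the lower genes, out of 817 in the comparison.

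The regulators of deep-layer fate differed to unequal degrees. Tbr1, the layer VI regulator, was at 47.9 FPKM in subcerebral and 217 FPKM in corticothalamic neurons. Fezf2, the layer V regulator, was at 187 FPKM in subcerebral against 118 FPKM in corticothalamic neurons, a log2 difference of 0.66 that did not reach 2-fold. Sox5 was at 61.8 FPKM in subcerebral neurons, against 103 FPKM in corticothalamic neurons, with a difference of -0.73. The columns were thus further apart for Tbr1 and Tle4 than for Fezf2, Bcl11b and Sox5.

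Among 65 genes of cortical transcription factors and cofactors, 12 were at least 2-fold higher and 10 at least 2-fold lower, with a median difference of -0.07 against 0.01 over all genes. The higher ones included all 3 POU-domain genes of the list. Pou3f2 was at 26.5 FPKM in subcerebral and 5.87 FPKM in corticothalamic neurons, Pou3f3 was at 81.3 FPKM in subcerebral against 35 FPKM in corticothalamic neurons, and Pou3f1 is given above. Etv1, which encodes the ETS factor ER81 of layer V, was at 13.9 FPKM in subcerebral neurons, against 1.41 FPKM in corticothalamic neurons. Klf6, a Krüppel-like factor gene, was at 75.9 FPKM in subcerebral and 12.9 FPKM in corticothalamic neurons. The LIM cofactor genes Lmo1 and Ldb2 were both higher. Lmo1 was at 29.4 FPKM in subcerebral against 6.33 FPKM in corticothalamic neurons and Ldb2 was at 97.6 FPKM in subcerebral neurons, against 34.7 FPKM in corticothalamic neurons. Foxp1 and Foxp2, forkhead genes of the same family, went opposite ways. Foxp1 was at 30.9 FPKM in subcerebral and 11.3 FPKM in corticothalamic neurons, whereas Foxp2 was at 5.6 FPKM in subcerebral against 30.1 FPKM in corticothalamic neurons. The Groucho genes also split. Tle3 was at 30.2 FPKM in subcerebral neurons, against 4.21 FPKM in corticothalamic neurons, opposite to Tle4, while Tle1 (log2 difference 0.79) and Tle2 (0.31) stayed under 2-fold. On the lower side were Nfia, a nuclear factor I gene, at 17.3 FPKM in subcerebral and 57.9 FPKM in corticothalamic neurons, and the zinc finger genes Zeb2 and Zfpm2. Zeb2 was at 35.4 FPKM in subcerebral against 98.9 FPKM in corticothalamic neurons and Zfpm2 (FOG2) was at 18 FPKM in subcerebral neurons, against 50.4 FPKM in corticothalamic neurons. Nfia and its relatives differed in degree, with -1.69 for Nfia, -0.57 for Nfib and -0.39 for Nfix.

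Lists of genes known from each neuron type leaned toward the type they are named for at E16, with exceptions. They were drawn up with earlier results of these cells known and are no independent evidence. Of 18 corticothalamic neuron genes, 13 were at least 2-fold lower in subcerebral neurons and 0 higher, with a median difference of -1.62. Ppp1r1b, which encodes the phosphatase inhibitor DARPP-32, was at 16.9 FPKM in subcerebral and 142 FPKM in corticothalamic neurons. Wnt7b, a secreted Wnt ligand gene, was at 32.6 FPKM in subcerebral against 217 FPKM in corticothalamic neurons. Zfpm2, Grik3, a kainate receptor gene at 37.3 FPKM in subcerebral neurons, against 112 FPKM in corticothalamic neurons, and the neurotensin receptor gene Ntsr1 at 45 FPKM in subcerebral and 94.3 FPKM in corticothalamic neurons were lower too. Ntsr1 was near its limit at -1.05. Of 19 subcerebral neuron genes, 9 were at least 2-fold higher and 2 were lower, with a median of 0.90. S100a10, a gene known from layer V neurons, was at 42.8 FPKM in subcerebral against 16.7 FPKM in corticothalamic neurons. The netrin-G gene Ntng1 was at 4.64 FPKM in subcerebral neurons, against 0.449 FPKM in corticothalamic neurons. The exceptions were Pcp4, which encodes a calmodulin-binding peptide, at 5.69 FPKM in subcerebral and 21.4 FPKM in corticothalamic neurons, and the ephrin receptor gene Epha4 at 8.96 FPKM in subcerebral against 28.7 FPKM in corticothalamic neurons. Crym, whose product binds thyroid hormone and which marks corticospinal neurons, was not yet higher in subcerebral neurons at E16, with 42.6 FPKM in them and 59.6 FPKM in corticothalamic neurons. Of 21 callosal neuron genes, 1 was higher, the nectin gene Pvrl3 at 19.9 FPKM in subcerebral neurons, against 2.45 FPKM in corticothalamic neurons, and 4 were lower, with a median of -0.61.

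**Figure D2:**
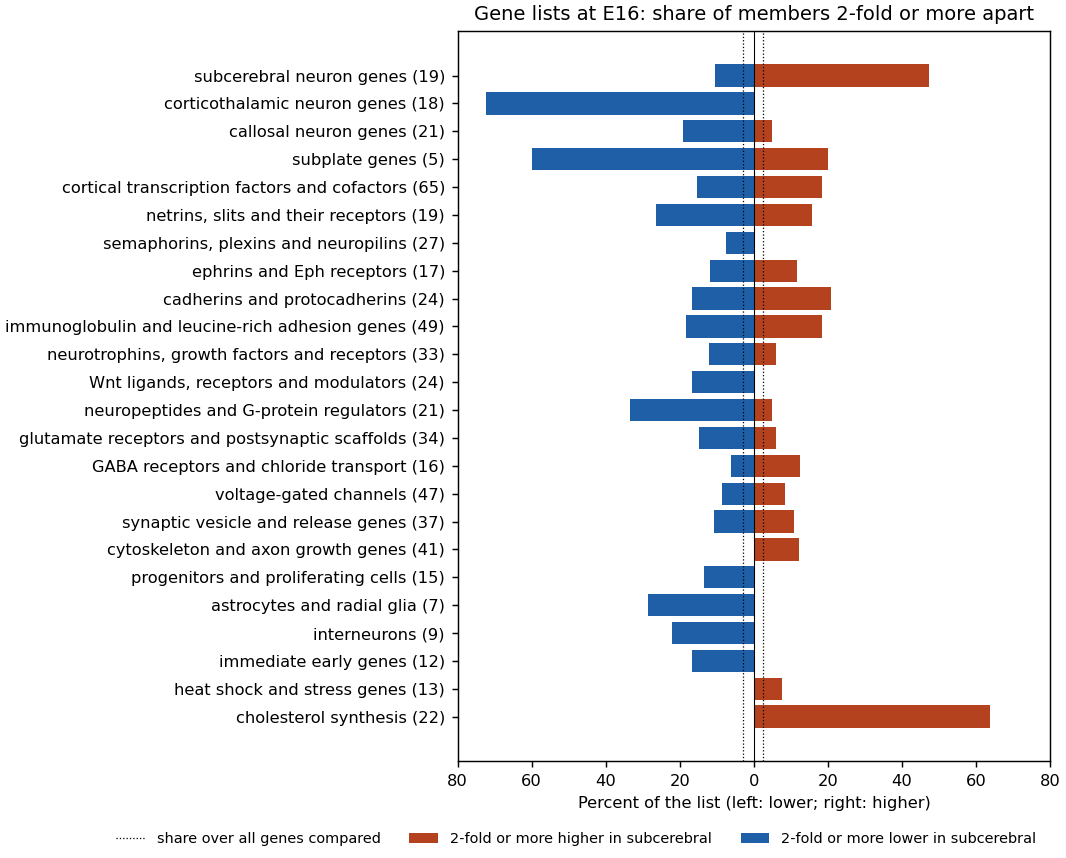
Bars give the percent of each list's members at least 2-fold higher in subcerebral neurons (right) and at least 2-fold lower (left) at E16, with the number of members in the comparison in brackets. The dotted lines mark 2.41% higher and 2.94% lower over all 13052 genes, and the cholesterol synthesis list has the longest bar to the right and the corticothalamic list the longest to the left.

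The genes of cholesterol synthesis and uptake formed the list with the largest share of members higher in subcerebral neurons at E16, of the 29 lists read. The pathway makes sterols from acetyl-CoA through mevalonate, and growing axons need sterols for membrane. Of 22 genes, 14 were at least 2-fold higher in subcerebral neurons and 0 lower, all 22 had a positive difference, and the median was 1.13. The 22 genes summed to 1162 FPKM in subcerebral neurons, against 524 FPKM in corticothalamic neurons, and to 889 FPKM in callosal neurons. Callosal neurons thus stood closer to subcerebral than to corticothalamic neurons in this sum. The list was counted again with median-ratio scaling and with quantile normalization, which left the count at 14 and 0. These scalings moved the median over all genes little, from 0.01 to 0.031 and 0.0016. Other differences between the pooled columns, such as in preparation, were not tested.

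In the mevalonate arm, Hmgcs1, which makes HMG-CoA, was at 5.57 FPKM in subcerebral and 0.713 FPKM in corticothalamic neurons. The kinase Mvk and the decarboxylase Mvd, which turn mevalonate into the isoprene unit, were at 22.3 FPKM in subcerebral against 8.6 FPKM in corticothalamic neurons and at 46.1 FPKM in subcerebral neurons, against 12.3 FPKM in corticothalamic neurons. Pmvk, the kinase between them, differed least in the list, at 28.4 FPKM in subcerebral and 22.4 FPKM in corticothalamic neurons. The isomerase Idi1 was at 38.1 FPKM in subcerebral against 15.4 FPKM in corticothalamic neurons, and Fdps, which makes farnesyl diphosphate, was at 177 FPKM in subcerebral neurons, against 63.1 FPKM in corticothalamic neurons. In the sterol arm, the epoxidase Sqle was at 128 FPKM in subcerebral and 57.1 FPKM in corticothalamic neurons, and Sc4mol (Msmo1), a sterol demethylation enzyme, was at 61.4 FPKM in subcerebral against 18.9 FPKM in corticothalamic neurons. Of the regulators, Insig1, which retains the pathway's activator in the endoplasmic reticulum, was at 38.6 FPKM in subcerebral neurons, against 18 FPKM in corticothalamic neurons. Srebf2, the transcriptional activator itself, was at 96.3 FPKM in subcerebral and 66.1 FPKM in corticothalamic neurons and stayed under 2-fold. Mvk, Pmvk, Idi1, Fdps, Sqle, Insig1 and Srebf2 were named after their values were seen.

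Promoters of 3 of these genes are shown because sterol genes are classically switched on through a sterol regulatory element next to a site for the factor NF-Y. The sequences are from RefSeq (GRCm38.p6), and run from 250 bases before to 50 after the start of the gene, 5′ to 3′ on the gene's strand. Capitals mark the NF-Y box CCAAT, which reads ATTGG on the other strand, and the sterol element core ACCCCAC, searched on both strands. Both motifs were chosen after the gene values were seen, and no match overlaps another.
Hmgcs1 (chr13:119690101-119690400, plus strand): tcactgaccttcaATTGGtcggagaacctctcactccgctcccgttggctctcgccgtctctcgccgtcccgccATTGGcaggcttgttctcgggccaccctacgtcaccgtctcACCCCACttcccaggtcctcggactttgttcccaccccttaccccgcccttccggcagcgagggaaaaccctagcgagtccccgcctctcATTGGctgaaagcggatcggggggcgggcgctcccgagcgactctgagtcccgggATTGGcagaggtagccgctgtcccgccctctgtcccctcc
Mvk (chr5:114444019-114444318, plus strand): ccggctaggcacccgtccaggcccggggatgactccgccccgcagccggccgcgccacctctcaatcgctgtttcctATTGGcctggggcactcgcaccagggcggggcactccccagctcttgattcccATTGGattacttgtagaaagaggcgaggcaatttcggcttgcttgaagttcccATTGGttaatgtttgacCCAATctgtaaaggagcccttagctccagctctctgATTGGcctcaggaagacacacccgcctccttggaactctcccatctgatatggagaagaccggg
Idi1 (chr13:8885356-8885655, plus strand): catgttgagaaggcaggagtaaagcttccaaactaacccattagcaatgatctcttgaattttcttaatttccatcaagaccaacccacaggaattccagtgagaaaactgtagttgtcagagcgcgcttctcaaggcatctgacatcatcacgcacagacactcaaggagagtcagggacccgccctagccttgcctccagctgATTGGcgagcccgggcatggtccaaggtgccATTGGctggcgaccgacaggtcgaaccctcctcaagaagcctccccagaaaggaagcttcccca

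The Hmgcs1 window held 4 NF-Y boxes, all in the reverse orientation, and 1 sterol element core at position -135 relative to the gene start. The Mvk window held 5 NF-Y boxes and the Idi1 window 2, and neither held the sterol element core. Of 27025 promoters of the same length, 37.9% held at least 1 NF-Y box, 12.2% at least 2, 1.14% at least 4 and 0.285% at least 5, and 6.08% held the sterol element core. The genes shown were not chosen by a rule set in advance, and 16 of the 22 cholesterol genes had a promoter. The cut-offs of 2, 4 and 5 are the counts found in the windows shown. The shares are therefore no measure of how unusual these promoters are. The matches are letters in a window and not shown sites. A comparison of motif shares between gene sets is void, because the promoter table held 61.8% of the higher genes, 66.4% of the lower genes and 72.7% of the cholesterol genes, all under 80%.

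The subcerebral sum of these genes was 492, 1162, 1266 and 1227 FPKM from E15 to P1, and the corticothalamic sum was 406, 524, 713 and 916 FPKM. The gap between the columns was therefore widest at E16. In callosal neurons the sums were 752, 889, 1044 and 1032 FPKM. Between E15 and E16, 14 of the 22 genes were at least 2-fold higher at the later stage in the subcerebral column, 0 in the corticothalamic and 1 in the callosal column. The shares over all genes of the comparison were 3.67%, 0.927% and 1.56%. The median subcerebral minus corticothalamic difference of the list was 0.23 at E15, 1.13 at E16, 0.70 at E18 and 0.38 at P1. Of the 22 genes, 0 were past 2-fold at E15, 5 were higher at E18, and 0 were higher and 1, Hmgcs1, lower at P1. Over all genes, 0.988% were higher and 2.02% lower at E15, 3.36% were higher at E18, and 4.08% were higher and 3.69% lower at P1. For Fdps the subcerebral values were 48.7, 177, 234 and 256 FPKM from E15 to P1, against 41.9, 63.1, 110.2 and 198 FPKM in corticothalamic neurons. Stages cannot be told apart from differences in collection, preparation or sequencing between the groups of a stage.

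**Figure D3:**
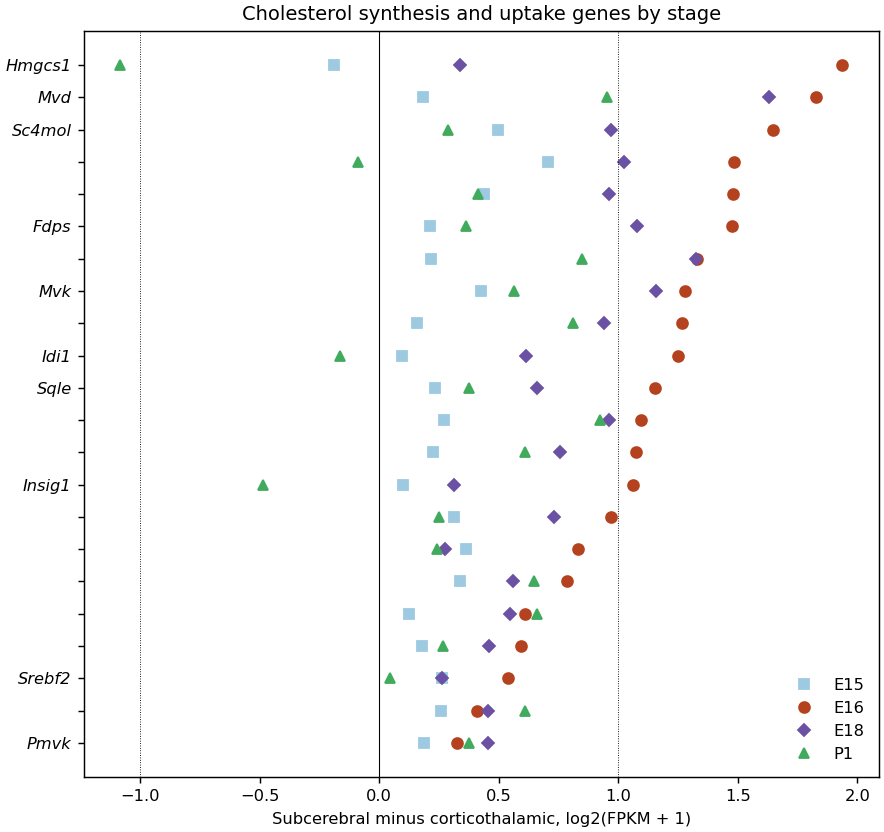
Points give the subcerebral minus corticothalamic difference on the log2(FPKM + 1) scale (horizontal axis) of the 22 cholesterol genes at E15, E16, E18 and P1, with names beside those described in the text. The dotted lines mark 2-fold; the E16 circles lie furthest right for most genes, with 14 past the line, while the P1 triangles lie nearer 0.

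Genes of the cytoskeleton and axon growth leaned toward subcerebral neurons, with 5 of 41 at least 2-fold higher, 0 lower and a median of 0.35. The 41 genes summed to 21139 FPKM in subcerebral neurons, against 13629 FPKM in corticothalamic neurons. Callosal neurons, at 18485 FPKM, were also above corticothalamic neurons in this sum. The neurofilament genes Nefm and Nefl, of a family whose products set axon calibre, were among the 5. Nefm was at 37.7 FPKM in subcerebral against 11.1 FPKM in corticothalamic neurons and Nefl was at 18.2 FPKM in subcerebral neurons, against 4.42 FPKM in corticothalamic neurons. Tubulin alpha 1a (Tuba1a), one of the most abundant genes in both columns, was at 6462 FPKM in subcerebral and 3356 FPKM in corticothalamic neurons, and Tubb2b was at 2377 FPKM in subcerebral against 1516 FPKM in corticothalamic neurons. Stmn1, which encodes the microtubule destabilizer stathmin, was at 2670.4 FPKM in subcerebral neurons, against 1748 FPKM in corticothalamic neurons. None of these last 3 reached 2-fold, with differences of 0.95 for Tuba1a, 0.65 for Tubb2b and 0.61 for Stmn1. The formin gene Diap3 was at 3.03 FPKM in subcerebral and 0.469 FPKM in corticothalamic neurons, and Arhgdig, a relative of Arhgdib, was at 25.8 FPKM in subcerebral against 5.99 FPKM in corticothalamic neurons.

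Of 19 genes of netrins, slits and their receptors, 3 were at least 2-fold higher and 5 lower. The slit receptor gene Robo1 was at 60.0 FPKM in subcerebral neurons, against 13 FPKM in corticothalamic neurons, and Robo2 was at 42 FPKM in subcerebral and 17.8 FPKM in corticothalamic neurons. The netrin receptor gene Dcc was at 1.36 FPKM in subcerebral against 5.62 FPKM in corticothalamic neurons, and the secreted netrin gene Ntn4 was at 0.33 FPKM in subcerebral neurons, against 5.8 FPKM in corticothalamic neurons. Robo1 and Robo2 were thus higher and Dcc was lower in subcerebral neurons. Of 27 semaphorin, plexin and neuropilin genes, 0 were higher and 2 lower, both low. Of these, Plxna4 was at 0.771 FPKM in subcerebral and 3.2 FPKM in corticothalamic neurons, and Sema3a came closest to 2-fold on the other side, at 3.9 FPKM in subcerebral against 1.46 FPKM in corticothalamic neurons. Of 17 ephrins and Eph receptors, 2 were higher and 2 lower. Efna5, the ephrin-A5 ligand gene, was at 17.4 FPKM in subcerebral neurons, against 6.89 FPKM in corticothalamic neurons. Epha8 was at 4.65 FPKM in subcerebral and 0.582 FPKM in corticothalamic neurons, while the receptor genes Epha3, at 0.66 FPKM in subcerebral against 7.73 FPKM in corticothalamic neurons, and Epha4 were lower.

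Adhesion molecules divided into genes of either column. Of 24 cadherins and protocadherins, 5 were at least 2-fold higher and 4 lower. Pcdh8 was at 34.1 FPKM in subcerebral neurons, against 5.14 FPKM in corticothalamic neurons and Cdh7 at 6.33 FPKM in subcerebral and 1.22 FPKM in corticothalamic neurons, while Cdh9 was at 0.226 FPKM in subcerebral against 3.95 FPKM in corticothalamic neurons and Cdh11 at 21 FPKM in subcerebral neurons, against 49.2 FPKM in corticothalamic neurons. Of 49 immunoglobulin and leucine-rich adhesion genes, 9 were higher and 9 lower. Contactins were found on both sides. Cntn6 and Cntn3, at 7.27 FPKM in subcerebral and 0.893 FPKM in corticothalamic neurons, were higher. Cntn2 (TAG-1), at 44.3 FPKM in subcerebral against 188 FPKM in corticothalamic neurons, was lower. The adhesion gene Ncam2 was at 12 FPKM in subcerebral neurons, against 0.841 FPKM in corticothalamic neurons. Robo2, Cdh11, Cntn3 and Cntn2 were named after their values were seen.

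Transmitter and channel genes showed pairs of relatives in opposite directions. Among 34 genes of glutamate receptors and postsynaptic scaffolds, 2 were at least 2-fold higher and 5 lower. The kainate receptor gene Grik2 was at 34.3 FPKM in subcerebral and 6.47 FPKM in corticothalamic neurons, whereas Grik3 and Grik4, at 0.203 FPKM in subcerebral against 4.49 FPKM in corticothalamic neurons, were lower. The AMPA receptor gene Gria3 was at 4.7 FPKM in subcerebral neurons, against 36.5 FPKM in corticothalamic neurons, and the metabotropic receptor gene Grm7 was at 3.91 FPKM in subcerebral and 0.535 FPKM in corticothalamic neurons. Among 16 genes for inhibitory receptors and chloride transporters, glycine receptors included, 2 were higher and 1 lower. Glra2, a glycine receptor gene, was at 65.7 FPKM in subcerebral against 20.9 FPKM in corticothalamic neurons, and the GABA-A receptor gene Gabra5 was at 11.8 FPKM in subcerebral neurons, against 2.43 FPKM in corticothalamic neurons. Of 47 voltage-gated channel genes, 4 were higher and 4 lower. Kcnq5, a potassium channel gene of the M-current family, was at 29.4 FPKM in subcerebral and 5.06 FPKM in corticothalamic neurons. Kcnab1, which encodes a potassium channel beta subunit, was at 2.29 FPKM in subcerebral against 13.4 FPKM in corticothalamic neurons, and the T-type calcium channel gene Cacna1g was at 12.4 FPKM in subcerebral neurons, against 35 FPKM in corticothalamic neurons. Of 37 genes of synaptic vesicles and release, 4 were higher and 4 lower. The synaptotagmin genes Syt4 and Syt6 went opposite ways, with Syt4 at 137 FPKM in subcerebral and 20.5 FPKM in corticothalamic neurons. The vesicle glycoprotein gene Sv2b was at 1.27 FPKM in subcerebral against 13.1 FPKM in corticothalamic neurons.

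In the signalling lists more genes were 2-fold lower than 2-fold higher in subcerebral neurons, beside 2.94% lower and 2.41% higher over all genes. These counts are small, and some moved with the pseudocount or the scaling. Of 21 neuropeptide and G-protein regulator genes, 1 was at least 2-fold higher, Adcyap1, and 7 were lower. Rgs8 was at 3.13 FPKM in subcerebral neurons, against 19.9 FPKM in corticothalamic neurons, beside Rgs16 above. Of 24 Wnt ligands, receptors and modulators, 0 were higher and 4 lower. Beside Wnt7b, the ligand gene Wnt7a was at 2.97 FPKM in subcerebral and 9.47 FPKM in corticothalamic neurons, the secreted modulator Sfrp2 at 0.58 FPKM in subcerebral against 6.22 FPKM in corticothalamic neurons and the Wnt receptor Ror2 at 0.444 FPKM in subcerebral neurons, against 2.31 FPKM in corticothalamic neurons. Of 33 neurotrophin and growth factor genes, 2 were higher and 4 lower. Sorcs1, a sorting receptor gene, was at 3.08 FPKM in subcerebral and 0.171 FPKM in corticothalamic neurons, while Bmp3 was at 0.211 FPKM in subcerebral against 3.49 FPKM in corticothalamic neurons and Igfbp3, a binding protein of insulin-like growth factors, was at 42.2 FPKM in subcerebral neurons, against 106 FPKM in corticothalamic neurons.

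Genes of other cell types were low in both columns, with Npy and Ptprz1 as the main exceptions. The interneuron list, 14 genes, summed to 58.4 FPKM in subcerebral neurons, against 261 FPKM in corticothalamic neurons, and Npy, the neuropeptide Y gene, supplied 47.4 FPKM of the subcerebral and 238 FPKM of the corticothalamic sum. Without Npy they were 11 FPKM in subcerebral and 23.1 FPKM in corticothalamic neurons, and 12 of the 14 genes were higher in corticothalamic neurons. The 22 progenitor genes summed to 91.9 FPKM in subcerebral neurons, against 105 FPKM in corticothalamic neurons, with 17 of 22 higher in corticothalamic neurons, among them the intermediate progenitor gene Eomes at 0.723 FPKM in subcerebral and 3.51 FPKM in corticothalamic neurons. The 10 genes of astrocytes and radial glia summed to 159.5 FPKM in subcerebral neurons, where Gfap and Aqp4 were listed at 0, against 135 FPKM in corticothalamic neurons. Ptprz1 supplied 108 FPKM of this sum in subcerebral and 54.8 FPKM in corticothalamic neurons. Without Ptprz1 the sums were 51.3 FPKM in subcerebral and 80.5 FPKM in corticothalamic neurons, and 7 of the 10 genes were higher in corticothalamic neurons. Microglial genes (15) summed to 24.4 FPKM in subcerebral neurons, with C1qb listed at 0, against 25.6 FPKM in corticothalamic neurons, and 13 of the 15 were higher in corticothalamic neurons. Vascular genes (12) summed to 1.75 FPKM in subcerebral and 4.17 FPKM in corticothalamic neurons, with 11 of the 12 higher in corticothalamic neurons, and red blood cell genes (6) to 8.33 FPKM in subcerebral and 10.3 FPKM in corticothalamic neurons, with Hbb-bh1 and Hbb-y listed at 0 in both. The 7 genes of the oligodendrocyte lineage summed to 13.8 FPKM in subcerebral and 12.7 FPKM in corticothalamic neurons. Those of Cajal-Retzius cells (6) summed to 13.3 FPKM in subcerebral and 6.89 FPKM in corticothalamic neurons, nearly all of it Reln, with Lhx1 listed at 0 in subcerebral neurons. In each of these 8 lists more members were higher in corticothalamic than in subcerebral neurons. Over the 13052 genes of the comparison, 6355 were higher in corticothalamic neurons. Many list members were under 1 FPKM, such as 12 of the 15 microglial genes in each column. More entries of the whole table reached 1 FPKM in corticothalamic (12735) than in subcerebral neurons (12475). Whether the lean is particular to these cell types was not tested.

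Subplate genes, from the neurons that lie beneath layer VI, leaned the same way as layer VI genes. The 12 genes summed to 26.6 FPKM in subcerebral neurons, against 71.6 FPKM in corticothalamic neurons, and 9 of 12 were higher in corticothalamic neurons. Nxph4 supplied 35 FPKM of the corticothalamic sum. The nuclear receptor gene Nr4a2 (Nurr1) was at 7.97 FPKM in subcerebral against 17.7 FPKM in corticothalamic neurons. The part of RNA from subplate neurons or these other cell types in the genes lower in subcerebral neurons was not tested. Of 12 immediate early genes, 0 were at least 2-fold higher and 2 lower. Of 13 heat shock and stress genes, 1 was higher, the chaperone gene Hspa5 at 144 FPKM in subcerebral neurons, against 66.6 FPKM in corticothalamic neurons, and 0 lower.

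Most genes apart at E16 were apart in the same direction at E18 and P1, and fewer at E15. The columns of E15, E18 and P1 come from other libraries. Of the 314 higher genes, 61 (19.4%) were past 2-fold the same way at E15, 240 (76.4%) at E18 and 209 (66.6%) at P1. Over all 13052 genes the share higher by 2-fold was 0.988% at E15, 3.36% at E18 and 4.08% at P1. Of the 384 lower genes, 135 (35.2%) were past 2-fold the same way at E15, 261 (68.0%) at E18 and 233 (60.7%) at P1, against 2.02%, 3.32% and 3.69% of all genes. All 3 other stages had the sign of E16 in 214 of the 314 higher genes (68.2%; 26.8% of all genes were positive at all 3) and in 319 of the 384 lower genes (83.1%; 24.7% of all genes were negative at all 3). The higher genes had a median difference of 0.36 at E15, 1.35 at E16, 1.46 at E18 and 1.36 at P1, and the lower genes of -0.82, -1.41, -1.41 and -1.27.

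**Figure D4:**
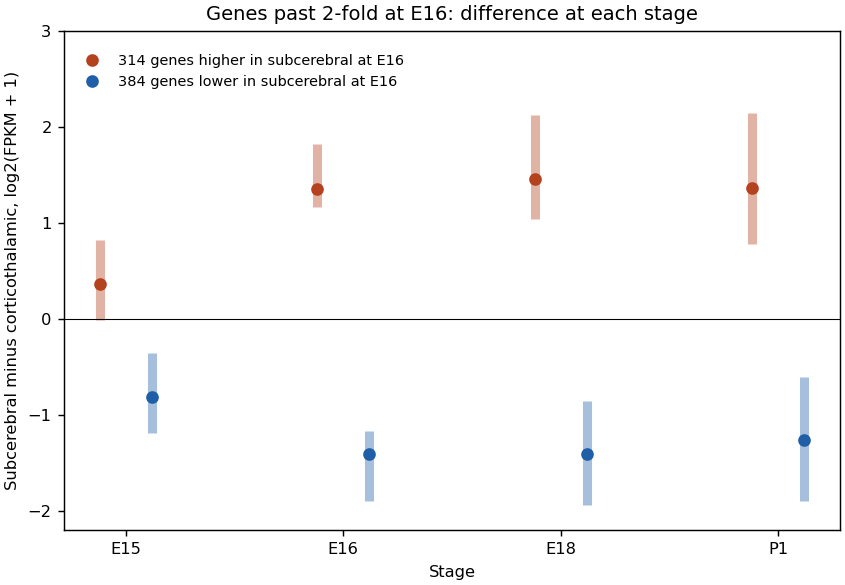
Points are the median subcerebral minus corticothalamic difference on the log2(FPKM + 1) scale at each stage, and bars span the first to the third quartile of the genes, for the 314 genes higher and the 384 genes lower in subcerebral neurons at E16. The E16 values chose the genes; at E15 the medians were 0.36 and -0.82, and at E18 1.46 and -1.41.

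Among genes past 2-fold at E16, E18 and P1 but not at E15, the subcerebral column differed more between E15 and E16 than the corticothalamic column. There were 146 such higher genes. In 106 of them (72.6%) the subcerebral value was at least 2-fold higher at E16 than at E15, beside 3.67% of all genes, while the corticothalamic value was at least 2-fold lower in 5, beside 0.475% of all genes. The median step was 1.53 in the subcerebral, 0.14 in the corticothalamic and 0.30 in the callosal column. There were 139 such lower genes. In 58 of them the subcerebral value was at least 2-fold lower at E16 than at E15 (2.29% of all genes), and in 16 the corticothalamic value was at least 2-fold higher (0.927% of all genes). The medians were -0.81 in the subcerebral, 0.11 in the corticothalamic and -0.0022 in the callosal column. These sets were chosen with the E16 column, and no test is attached to the steps.

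Single genes show both courses. Tcerg1l had 0.343, 81.3, 165 and 166 FPKM in subcerebral neurons from E15 to P1, against 0.0443, 1.28, 1.1 and 0.539 FPKM in corticothalamic neurons. Cntn6 had 0.0302, 26.1, 58.2 and 87.1 FPKM in subcerebral neurons, against 0.171, 1.02, 2.43 and 6.59 FPKM in corticothalamic neurons over the same stages. Both were under 1 FPKM in either column at E15 and differed from E16 on. Fam19a1 was listed at 0 in both columns at E15. Etv1 had 0.137, 13.9, 14.8 and 11.2 FPKM in subcerebral neurons, against 0.173, 1.41, 6.02 and 7.79 FPKM in corticothalamic neurons, so that its gap was widest at E16 and narrowed as the corticothalamic value grew. On the lower side, Syt6 had 25.8, 5.02, 1.86 and 1.2 FPKM in subcerebral neurons, against 28.5, 60.5, 78.7 and 90.9 FPKM in corticothalamic neurons. The Syt6 columns were close at E15 and parted in both directions after it. Tbr1 had 223, 47.9, 29.2 and 15.7 FPKM in subcerebral neurons, against 315, 217, 195 and 156 FPKM in corticothalamic neurons. Here both columns were lower at later stages, the subcerebral one by more. Whrn had 4.2, 2.67, 4.22 and 3.44 FPKM in subcerebral neurons, against 41, 34.2, 50.1 and 46 FPKM in corticothalamic neurons, and Bhlhe22 had 127, 267, 291 and 168 FPKM in subcerebral neurons, against 12.9, 16.4, 18.2 and 6.18 FPKM in corticothalamic neurons. Whrn and Bhlhe22 were already well apart at E15.

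**Figure D5:**
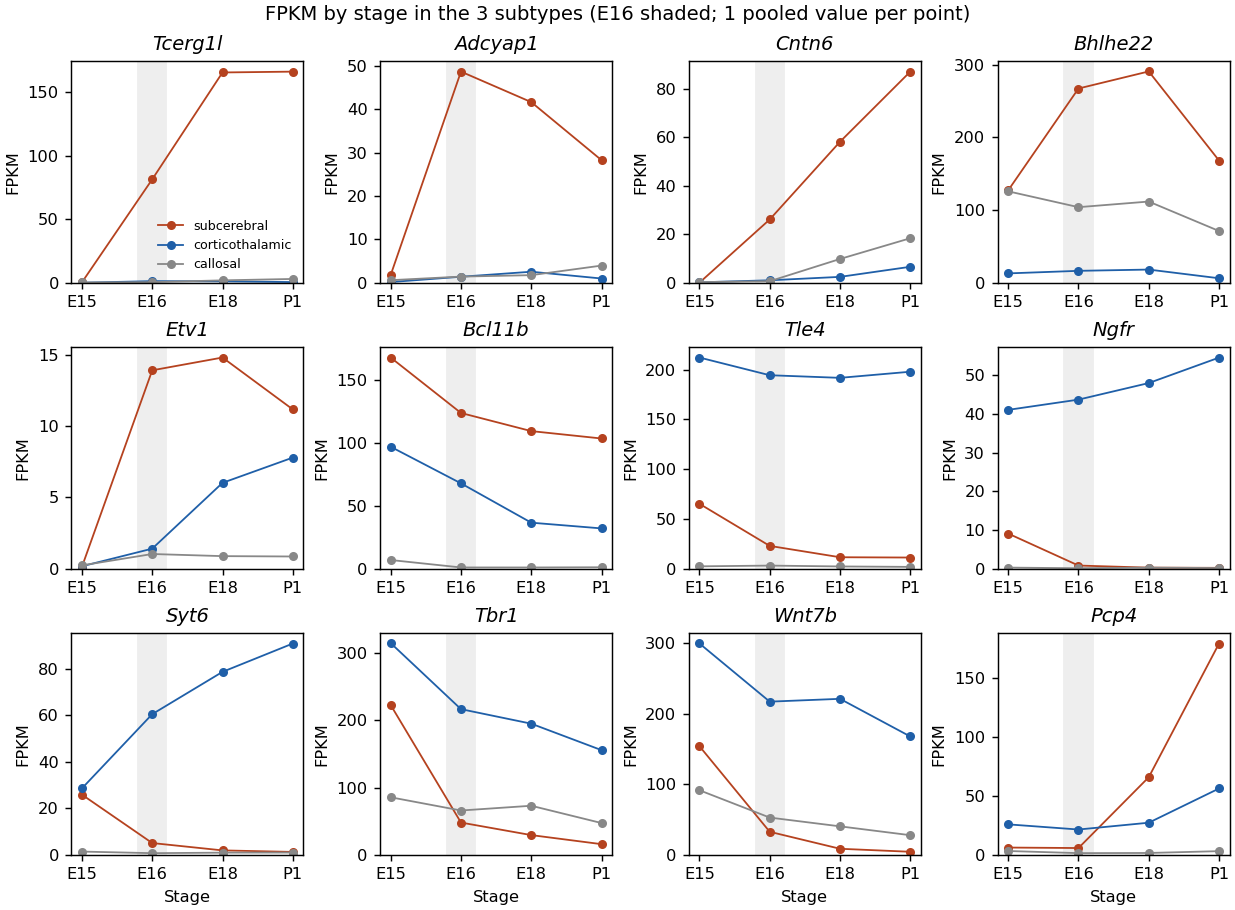
Lines give the pooled FPKM (vertical axis, from 0) of 12 genes at E15, E16, E18 and P1 in subcerebral, corticothalamic and callosal neurons, with E16 shaded. Tcerg1l and Cntn6 are near 0 at E15 and high in subcerebral neurons from E16, while Tle4 and Ngfr are high in corticothalamic neurons at every stage.

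The subtype difference was tested in the 9 columns of E15, E18 and P1, which do not include the E16 values. A limma fit with additive terms for stage and subtype was used. Its spread is the unevenness of a difference over stages, so its p-values do not measure the spread between libraries. Of 13823 genes tested, 153 passed as higher in subcerebral neurons (1.11%) and 213 as lower (1.54%) at a limma adjusted p below 0.05, and 3993 had an unadjusted p under 0.05. Of the genes past 2-fold at E16, 63 of 300 tested higher genes (21.0%) passed as higher and 119 of 376 tested lower genes (31.6%) passed as lower, and 0 passed the other way. Leaving out a stage, which also cut the residual degrees of freedom from 4 to 2, changed the count over all genes. It was 366 with all 3 (2.65%), 6189 without E15 (3166 higher, 23.5%, and 3023 lower, 22.4%), 2 without E18 and 2 without P1. Without E15, 270 of 296 tested higher genes and 310 of 359 tested lower genes passed in their E16 direction, and 0 and 4 in the other.

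Over E15, E18 and P1 the mean difference of Whrn was -3.24 ± 0.11 (limma adjusted p = 0.000511), with its standard error (SE) after the sign ±. Tle3 differed by 2.61 ± 0.16 (limma adjusted p = 0.00562), Kcnq5 by 1.98 ± 0.13 (limma adjusted p = 0.00562) and Bhlhe22 by 3.90 ± 0.29 (limma adjusted p = 0.00754). The slit receptor gene Robo1 differed by 1.88 ± 0.23 (limma adjusted p = 0.0203), and the glycine receptor gene Glra2 by 1.64 ± 0.20 (limma adjusted p = 0.0205). Toward corticothalamic neurons, Wscd1 differed by -3.61 ± 0.27 (limma adjusted p = 0.00754), Kcnab1 by -3.21 ± 0.24 (limma adjusted p = 0.00716), Gdf10 by -2.92 ± 0.27 (limma adjusted p = 0.0138) and Foxp2 by -1.97 ± 0.19 (limma adjusted p = 0.0138). Tle4 differed by -3.22 ± 0.49 (limma adjusted p = 0.0364) and Ngfr by -4.27 ± 0.68 (limma adjusted p = 0.0392). The marker Bcl11b missed the threshold, with 1.33 ± 0.25 (limma adjusted p = 0.0533). Adcyap1, already past 2-fold at E15 with 1.27, had 2.91 ± 0.61 (limma adjusted p = 0.063). The genes listed next were under 2-fold at E15 and missed the threshold too. Tcerg1l had 4.48 ± 1.27 (limma adjusted p = 0.0989), Cntn6 2.49 ± 0.77 (limma adjusted p = 0.11), Syt6 -3.44 ± 0.94 (limma adjusted p = 0.0941) and Tbr1 -2.14 ± 0.58 (limma adjusted p = 0.0918). Their limma adjusted p without E15 was 9.02e-05 for Tcerg1l, 9.96e-05 for Cntn6, 5.95e-05 for Syt6 and 0.000154 for Tbr1. The chaperone gene Hspa5 had 0.69 ± 0.13 (limma adjusted p = 0.0499), close to the threshold. Of the 22 cholesterol genes 0 passed the limma fit over these 3 stages in either direction, beside 2.65% of all genes tested. Of the 22, 11 had an unadjusted p under 0.05 in that limma fit, beside 3993 of all 13823 genes. Without E15, 16 of the 22 passed as higher and 0 as lower, beside 23.5% and 22.4% of all genes tested. Mvk had 0.72 ± 0.15 (limma adjusted p = 0.0643) with all 3 stages, Mvd 0.92 ± 0.30 (limma adjusted p = 0.12), Sc4mol 0.58 ± 0.26 (limma adjusted p = 0.198), Fdps 0.55 ± 0.26 (limma adjusted p = 0.211) and Hmgcs1 -0.31 ± 0.34 (limma adjusted p = 0.562). Without E15 the limma adjusted p was 0.00787 for Mvk, 0.00359 for Mvd, 0.0292 for Sc4mol, 0.0214 for Fdps and 0.528 for Hmgcs1.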

How the data were processed

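RNA of neurons sorted by FACS was sequenced after poly(A) selection, per the labels' protocols. The tools named in the submitters' processing notes are TopHat2 and Cufflinks, and the build is mm9. No source used here gives tool versions, the annotation, strand use, scaling or how the 2 libraries of a group were pooled. The deposited values carry no named unit and were read as FPKM, from the use of Cufflinks, values often far below 1 and column sums that differ (355965 to 473871; 390980 in E16 subcerebral and 355965 in E16 corticothalamic neurons). Overlapping genes and near-identical copies may share reads.

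From these values log2(FPKM + 1) differences were computed (Python 3.11.15, pandas 2.3.3), with 2-fold as a call of size. The subtype difference over E15, E18 and P1 was fitted with limma 3.58.1 (R 4.3.3, statmod 1.5.0; trend and robust moderation; additive stage and subtype; 4 residual degrees of freedom) on genes with 1 FPKM or more in at least 2 of 9 columns, with Benjamini-Hochberg adjustment over 13823 genes. Tested on simulated data for that fit, with 13823 genes, it recovered 74 of 100 genes changed by a log2 difference of 1 and 94 of 100 changed by 2. The simulated differences were the same at every stage, with independent noise. These counts therefore do not apply to genes whose difference varies between stages.

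The comparison and its gene lists were chosen with earlier results of these data known. Of the list symbols, 776 matched as written, 7 through an older or newer symbol in RefSeq and 4 were absent. Named genes are the 12 largest differences in each direction, the 4 markers, the 4 largest of each list with all members of the neuron-type and transcription factor lists, the 6 in each direction furthest from their other stages, and the 5 most abundant. Some genes that this rule names are not reported here. The alternatives were the pseudocount, the filter, the scaling, the columns fitted and each stage left out.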

Additional observations from a re-analysis of the deposited data

Results flagged for a closer look

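Of the named genes, 5 were past 2-fold in one direction at E16 and in the other direction at another stage. These differences between stages were not tested, each rests on 1 pooled value per group, and stage cannot be told apart from collection or sequencing. Values are subcerebral minus corticothalamic on the log2(FPKM + 1) scale.

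Pcp4, which encodes a calmodulin-binding peptide, was at -1.75 at E16 but at 1.25 at E18 and 1.66 at P1. Its subcerebral values were 6.09, 5.69, 65.9 and 179.6 FPKM from E15 to P1, against 25.8, 21.4, 27.2 and 56.3 FPKM in corticothalamic neurons. Nrgn, which encodes the postsynaptic protein neurogranin, was at -1.26 at E16, 1.05 at E18 and 1.56 at P1. Its values were 1.39, 7.55, 87.0 and 368 FPKM in subcerebral neurons, against 3.70, 19.5, 41.6 and 124 FPKM in corticothalamic neurons. Gabra5 was at 1.90 at E16 and -1.27 at E15. The cholesterol gene Hmgcs1 was at 1.94 at E16 and -1.08 at P1, with 0.402, 5.57, 3.41 and 1.55 FPKM in subcerebral neurons from E15 to P1, against 0.597, 0.713, 2.49 and 4.4 FPKM in corticothalamic neurons. Adamts17, a secreted metalloproteinase gene, was at -1.07 at E16, 1.41 at E15 and 1.02 at P1. Over all genes past 2-fold at E16, 19 were past 2-fold the other way at another stage.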

How the results depend on the processing

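No paired analysis was possible because the table holds 1 pooled column per group, and for the same reason no replicate could be left out. The share of E16 calls with the same sign at all other stages, and the E16 counts of the subcerebral, corticothalamic, transcription factor and cholesterol lists, stayed within 1.5 times under the alternatives run. Of 350 counts of the other lists, most of them small, 61 moved by more than 1.5 times: 18 with a pseudocount of 5, 16 with 1 FPKM required in both columns, 12 with a minimum of 5 FPKM in either, 7 with a pseudocount of 0.5, 5 with quantile normalization and 3 with median-ratio scaling. With a pseudocount of 5, genes of netrins and slits numbered 2 lower, cadherins 2 higher and 1 lower, and neuropeptide and G-protein regulator genes 4 lower. Under either scaling 1 Wnt gene and 1 semaphorin, plexin or neuropilin gene were higher, where 0 are reported. With a pseudocount of 5, 295 genes were past 2-fold at E16 (137 higher and 158 lower), against 698. With a pseudocount of 0.5 the count was 897 and with 1 FPKM required in both columns 491, both within 1.5 times; the share of higher genes ranged from 44.4% to 47.6%. No named gene changed sign under another pseudocount or scaling. With a pseudocount of 5, 32 of 186 named genes no longer reached 2-fold.

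The limma count over E15, E18 and P1 depended on the columns fitted. It was 366 (153 higher, 213 lower) as reported, 3835 with all 12 columns (2048 and 1787), 75 with the 6 columns of these subtypes (36 and 39), and 102 with no filter (36 and 66). It was 6189 without E15 (3166 and 3023), 2 without E18 (0 and 2) and 2 without P1 (1 and 1), and 99 genes were higher with a pseudocount of 5. Without E18, 1060 genes had an unadjusted p under 0.05, and without P1 1302. The fits without E15, without E18, without P1 and with the 6 columns each had 2 residual degrees of freedom, against 4 as reported. Why the counts differ was not tested. The planned motif shares at 4-fold were not run, since the promoter table is too incomplete. Depth is unknown, so no counting error can be given for low values.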
